A study of Mus musculus with 6 samples.

Results

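The bone morphogenetic protein (BMP) pathway was followed here through 10 of its genes in mouse mesoderm sorted from differentiating embryonic stem (ES) cells. The genes were the ligands Bmp2, Bmp4, Bmp5 and Bmp7, the receptors Bmpr1a and Bmpr2, the inhibitory Smad gene Smad6, and the target genes Id1, Id2 and Id3. All probe sets annotated to exactly 1 gene, with one of these 10 symbols, were taken, which gave 23 of the 45037 non-control probe sets and 10 of 18193 genes. The rule used no measured values, but the 10 genes were chosen with earlier results of these data known. RNA was hybridised to 6 Affymetrix arrays, 2 for each of 3 groups of Flk1+ cells from day 4 embryoid bodies. SclKO cells came from a line lacking functional Scl (gene Tal1, a transcription factor needed for blood formation), derived from the J1 ES line of strain 129S4/SvJae, and were sorted on Flk1 alone, although their titles call them Scl-. WT Scl+ and WT Scl- cells came from a line made in R1 ES cells, of a (129/Sv x 129/Sv-CP)F1 blastocyst, in which human CD4 knocked into the Scl locus reports Scl. WT Scl+ cells were Flk1+ and human CD4 positive, and WT Scl- cells were Flk1+ and human CD4 negative. A difference between SclKO and either WT group may thus come from the knockout, the ES line or the gate, which cannot be told apart. All groups were cultured for 2 days in a pre-differentiation medium with serum and LIF and then formed embryoid bodies in serum, transferrin and ascorbic acid. The protocol names no added BMP ligand.

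BMP ligands are secreted dimers that bring together type I receptors such as Bmpr1a and type II receptors such as Bmpr2, which phosphorylate Smad1, Smad5 and Smad9. With Smad4 these enter the nucleus and switch on targets that include the Id genes and Smad6, and Smad6 damps the signal in return. Id proteins are helix-loop-helix proteins without a DNA-binding region that hold E proteins, the DNA-binding partners of Scl, in inactive pairs. In the early embryo Bmp4 is needed for mesoderm and for blood formation.

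The promoters of 7 of the 10 genes were matched in RefSeq tables of assembly GRCm38.p6, and 3 are shown, from the ligand and Id genes described below that had an entry and a motif match. Bmp2, Bmp7 and Id1 are named only. Each is the 250 bases before the gene start, 5′ to 3′ on the gene's strand. Capitals mark matches on either strand to any of 3 motifs, and no matches overlapped. The first was CANNTG, the E box bound by Scl and E proteins. The second was GGCGCC, a Smad motif of BMP-responsive genes. The third was GATAA, the core that GATA factors bind.
Bmp4, chr14:46390670-46390919, minus strand: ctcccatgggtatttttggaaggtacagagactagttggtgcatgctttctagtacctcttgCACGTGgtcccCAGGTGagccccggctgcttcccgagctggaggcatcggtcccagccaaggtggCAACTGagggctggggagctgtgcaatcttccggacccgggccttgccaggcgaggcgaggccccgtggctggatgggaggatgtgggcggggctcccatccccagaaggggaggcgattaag
Bmp5, chr9:75775115-75775364, plus strand: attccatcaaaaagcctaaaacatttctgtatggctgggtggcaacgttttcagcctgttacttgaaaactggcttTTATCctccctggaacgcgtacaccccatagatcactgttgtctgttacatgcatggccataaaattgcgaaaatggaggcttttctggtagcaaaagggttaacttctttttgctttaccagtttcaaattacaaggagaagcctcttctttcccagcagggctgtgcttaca
Id2, chr12:25096093-25096342, minus strand: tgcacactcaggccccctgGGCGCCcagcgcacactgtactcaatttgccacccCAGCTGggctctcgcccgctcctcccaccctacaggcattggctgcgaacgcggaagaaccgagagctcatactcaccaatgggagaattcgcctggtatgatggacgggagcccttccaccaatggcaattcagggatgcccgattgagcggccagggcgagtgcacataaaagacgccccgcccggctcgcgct
The Bmp4 window held 3 E boxes, and the Id2 window held 1 E box and 1 GGCGCC, while the Bmp5 window held 1 GATAA match. Of 32851 RefSeq promoter windows of this length, 66.2% held an E box, 9.59% held GGCGCC and 22.6% held GATAA. The Smad motif also occurred in the windows of Bmpr1a and Bmpr2, and none of the 3 motifs occurred in those of Smad6 and Id3.

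Levels are natural logs of the deposited signal, and differences are log units. The base of the deposited values is not stated: 1 log unit is 2-fold if their natural log is a log2 value of the authors' normalisation, and 2.72-fold if they are linear, and folds below give the 2-fold reading first. Nothing in the labels says that replicates were separate cultures, so the p-values reflect array-to-array spread alone, which may be technical. Tal1 was lowest in SclKO and highest in WT Scl+, without overlap, although it did not pass the test (SclKO over WT Scl+ limma adjusted p = 0.139): it was at 5.71 and 6.14 in SclKO, 8.65 and 8.78 in WT Scl+, and 6.52 and 7.97 in WT Scl-, whose replicate 2 lay nearer to WT Scl+. Kdr, which encodes Flk1, lay between 10.83 and 11.35 on every array. WT Scl+ replicate 2 stood apart on the first principal component (78.4, against -38.1 to 11.5 on the other arrays), and results that rest on it are given without it, the 1 array left in WT Scl+ then being assumed to vary like the other groups. Mesoderm was present by its markers on all arrays, and endothelial and primitive blood markers were higher in WT Scl+. The mean level of 5 mesoderm markers (Kdr, Mesp1, Pdgfra, Mixl1, Eomes) was 10.23 and 10.06 in SclKO, 8.90 and 8.21 in WT Scl+, and 10.08 and 9.66 in WT Scl-. The mean of 7 endothelial markers was 5.12 and 6.00 in SclKO, 7.02 and 7.56 in WT Scl+, and 4.76 and 6.47 in WT Scl-, so WT Scl- replicate 2 lay between its fellow replicate and WT Scl+. The mean of 6 primitive blood markers was 4.67 and 4.82 in SclKO, 7.30 and 6.59 in WT Scl+, and 4.93 and 5.53 in WT Scl-. Of these, 6 endothelial and 6 blood markers exceeded the limit for dim probe sets on both WT Scl+ arrays. Whether the share of such cells bears on the BMP genes was not tested, and in sorted bulk RNA fewer cells of a type and less RNA per cell cannot be told apart.

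Of the 23 member probe sets, 20 exceeded the 40th percentile of their array (4.54 to 4.59) on at least 2 arrays and were tested, and each of the 10 genes kept at least 1. The 3 left out, 1 each of Bmpr1a, Bmpr2 and Id2, lay under that limit on every array. No member passed limma's test in any comparison. In SclKO over WT Scl-, 0 of 20 were called at an adjusted p under 0.05, against 0.0106% of all 28362 probe sets tested. In SclKO over WT Scl+ it was also 0 of 20, against 0.0106%, and in WT Scl+ over WT Scl- 0 of 20, against 0%. The probe sets called anywhere, named after their values were seen, were the same 3 in both SclKO comparisons: Cdkn1c, Gm6958 and an unnamed one.

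Set against WT Scl-, SclKO cells had higher Id1 levels, short of the adjusted threshold, and the ligand differences lay between -0.42 and 0.14 log units. At an unadjusted p under 0.05, 1 of 20 member probe sets was higher, that of Id1, and 0 were lower, against 2.7% and 2.77% of all probe sets. This count depends on the spread of WT Scl+, which the fit shares. A fit of only the 2 groups compared gave 4 member probe sets, and its share over all probe sets is not given. The arrays did not overlap for 6 that were higher and 3 that were lower, where 21.7% and 19.5% of all probe sets did so. The median difference over the member probe sets was -0.06 log units, against 0.01 over all probe sets tested. With 1 probe set for each of the 10 genes it was 0.12, with 6 positive and 4 negative, so its sign depends on how probe sets are counted. Some markers of other cells were also higher in SclKO here, and none was called. The mean of 6 pluripotency markers was 6.63 and 6.43 in SclKO, against 6.39 and 5.77 in WT Scl-. The median difference of the 5 tested was 0.80 log units (Pou5f1 1.09, Sox2 1.90, Zfp42 0.80, Nanog 0.05, but Klf4 -0.74). The mean and the median include Sox2, which exceeded the limit for dim probe sets on only 3 arrays. Those were both SclKO arrays and WT Scl+ replicate 1, and WT Scl- lay under it (3.99 and 3.07). The Sox2 difference therefore adds no support. Esrrb, dim and untested, was lower in SclKO (3.42 and 3.97, against 4.07 and 4.15). The mean of 6 endoderm markers was 5.31 and 5.22 in SclKO, against 4.93 and 5.08 in WT Scl-. The median difference over the 4 tested was 0.53 (Foxa2 0.74, Apoa1 0.71, Sox17 0.35, Ttr -0.07). Sox17, Ttr and the untested Afp and Cubn overlapped. The mean of 6 cardiac muscle markers was 6.12 and 6.04 in SclKO, against 6.12 and 5.75 in WT Scl-. Their median difference was 0.20 log units, with 4 positive and 2 negative. In WT Scl+, the pluripotency mean was 6.85 and 5.46, the endoderm mean was 5.48 and 5.37, and the cardiac mean was 5.97 and 5.48. Id1 was lower there than in SclKO as well. The part of these markers in the Id1 difference was not tested.

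Set against WT Scl+, SclKO cells had higher levels of Bmp7, Id1 and, by 1 of 2 probe sets, Id2, all short of the adjusted threshold. At an unadjusted p under 0.05, 5 of 20 were higher and 0 were lower, against 7.35% and 5.68% of all probe sets. The 5 comprised all 3 Bmp7 probe sets, Id1 and 1 Id2 probe set. The arrays did not overlap for 9 that were higher and 1 that was lower, against 24.4% and 18.2%. The counts of higher probe sets and the median include Bmp7 1432410_a_at. That probe set passed the filter only through SclKO and WT Scl- arrays, so it adds no support. The median member difference was 0.30 log units (0.08 without WT Scl+ replicate 2), against 0.05 over all probe sets with all arrays.

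Within the reporter line, WT Scl+ cells had lower levels of Bmp7, Bmp4 and Bmp5 than WT Scl- cells, all short of the adjusted threshold. At an unadjusted p under 0.05, 5 of 20 were lower and 0 were higher, against 4.94% and 4.44% of all probe sets. They were the 3 of Bmp7, that of Bmp4 and 1 of Bmp5. The arrays did not overlap for 10 that were lower and 3 that were higher, against 21.2% and 16.6%. The counts of lower probe sets and the median again include Bmp7 1432410_a_at, which adds no support for the reason given above. The median member difference was -0.26 log units (-0.13 without WT Scl+ replicate 2), against -0.05 over all probe sets with all arrays. All 3 comparisons draw on the same 6 arrays, and each pair of them shares a group.

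**Figure D1:**
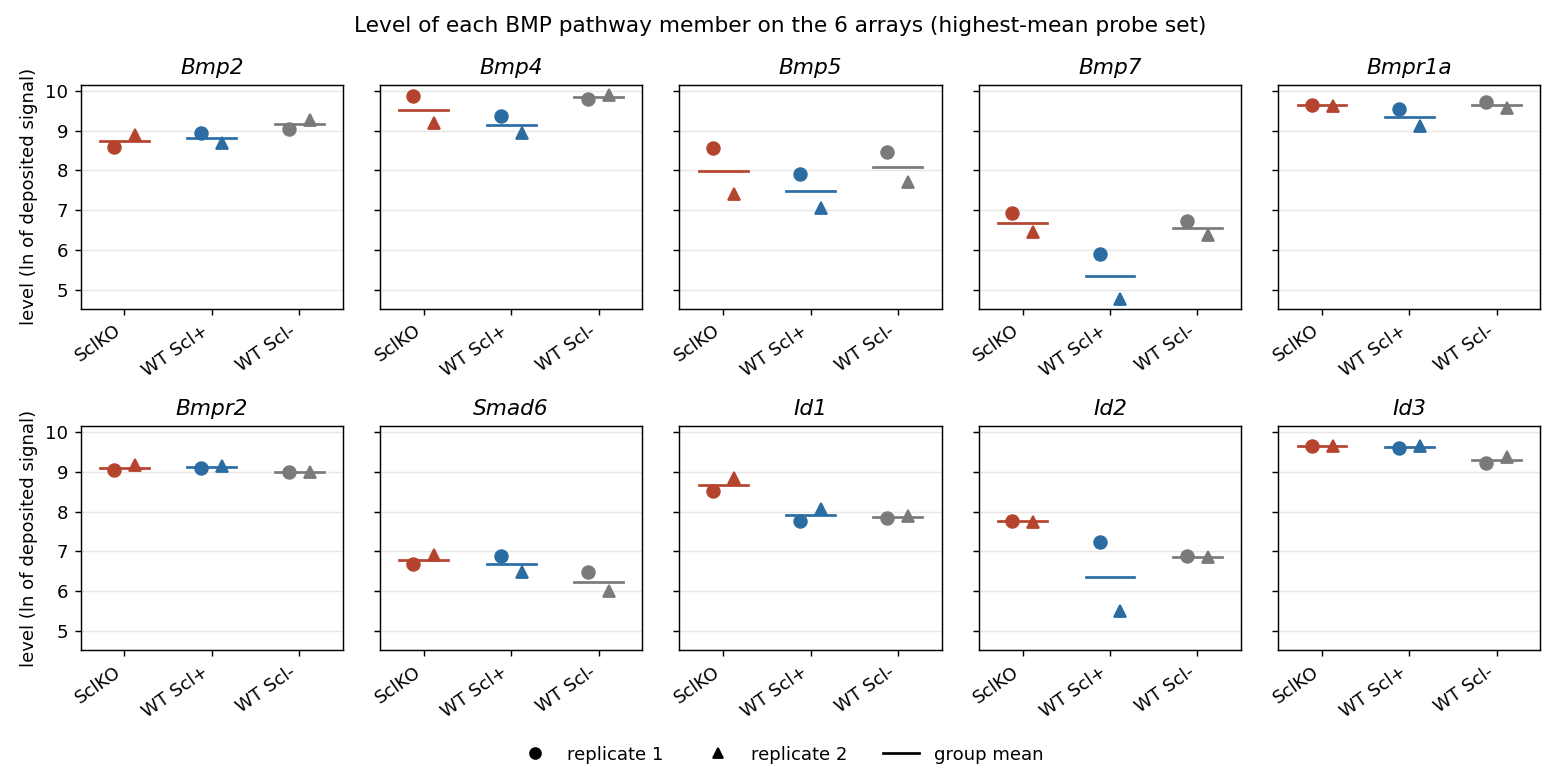
Level (natural log of the deposited signal) of the highest-mean probe set of each member on the 6 arrays, by group. Circles are replicate 1, triangles replicate 2 and bars group means. Bmp7 is lowest on both WT Scl+ arrays, Id1 highest on both SclKO arrays, and the Id2 level of WT Scl+ replicate 2 (5.51) lies far below that of replicate 1 (7.23).

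Bmp7, a ligand closely related to Bmp5, showed the widest separation among the ligands, in its 2 probe sets that exceeded the limit on every array. Probe set 1435479_at was at 6.93 and 6.45 in SclKO, 5.90 and 4.78 in WT Scl+, and 6.72 and 6.39 in WT Scl-. Probe set 1418910_at was at 6.81 and 6.30 in SclKO, 5.71 and 4.64 in WT Scl+, and 6.62 and 6.33 in WT Scl-. Both WT Scl+ arrays lay under all 4 others in each of these, and SclKO and WT Scl- overlapped. Probe set 1435479_at differed by 1.35 log units in SclKO over WT Scl+ (SE 0.39, 95% interval 0.41 to 2.30, 2.56-fold or 3.87-fold, limma adjusted p = 0.264). In WT Scl+ over WT Scl- it differed by -1.22 log units (SE 0.39, interval -2.16 to -0.27, limma adjusted p = 0.472). The SclKO over WT Scl- difference was 0.14 log units (interval -0.81 to 1.08), an interval that leaves room for a change of either sign. The size depended on WT Scl+ replicate 2: without it the first difference was 0.79 log units and the second was -0.66. Without WT Scl+ replicate 1, which leaves the outlying replicate 2 as the only WT Scl+ array, they were 1.91 and -1.78 log units. For 1418910_at the same settings gave 0.85 and -0.76 without replicate 2, and 1.92 and -1.83 without replicate 1.

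The third Bmp7 probe set, 1432410_a_at, was dim. It was at 4.73 and 4.17 in SclKO, 3.42 and 3.45 in WT Scl+, and 4.74 and 4.60 in WT Scl-, and only 3 arrays exceeded the limit. It passed the filter through SclKO and WT Scl- arrays, so its separation from WT Scl+ is no support of its own. Its measured differences were 1.02 log units in SclKO over WT Scl+ and -1.24 in WT Scl+ over WT Scl-. With WT Scl+ set to the limit, it lay 1.08-fold or 1.12-fold below the WT Scl- mean (0.11 log units). That is less than the SE of the measured difference (0.22), so no lower bound is drawn from it.

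Bmp5 had the same order of group means as Bmp7 within the reporter line, with more spread between arrays. Probe set 1421283_at was at 6.84 and 6.62 in SclKO, 6.56 and 5.45 in WT Scl+, and 7.16 and 6.80 in WT Scl-. Its WT Scl+ arrays lay below the 4 others, by little for replicate 1. It differed by -0.98 log units in WT Scl+ over WT Scl- (SE 0.37, interval -1.88 to -0.07, limma adjusted p = 0.514), and by -0.42 without WT Scl+ replicate 2. Without WT Scl+ replicate 1 this difference was -1.53. Probe set 1421282_at gave -0.98 log units for this comparison, and -0.39 and -1.57 without WT Scl+ replicate 2 and 1. The brightest, 1455851_at, gave -0.59 with overlapping arrays (8.57 and 7.40 in SclKO, 7.92 and 7.06 in WT Scl+, 8.46 and 7.71 in WT Scl-). In SclKO over WT Scl+ the 3 probe sets gave 0.50 to 0.73 log units (0.07 to 0.17 without WT Scl+ replicate 2), and in SclKO over WT Scl- -0.31 to -0.10, all with intervals that include 0.

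Bmp4, the ligand that mesoderm formation requires, was at 9.87 and 9.19 in SclKO, 9.37 and 8.94 in WT Scl+, and 9.80 and 9.89 in WT Scl-. WT Scl+ lay below WT Scl- without overlap, and the SclKO arrays spanned much of the range of both. WT Scl+ over WT Scl- was -0.69 log units (SE 0.27, interval -1.36 to -0.03, 1.62-fold or 2.00-fold lower, limma adjusted p = 0.523). That difference was -0.48 without WT Scl+ replicate 2 and -0.91 without replicate 1. SclKO over WT Scl+ was 0.38 (interval -0.29 to 1.04) and SclKO over WT Scl- was -0.32 (interval -0.99 to 0.35), so the SclKO mean is not placed relative to either WT group. With 1 SclKO array left out, the first of these ran from 0.0333 to 0.72 and the second from -0.66 to 0.0239.

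Bmp2, the closest relative of Bmp4, had the closest group means of the ligands. It was at 8.58 and 8.89 in SclKO, 8.94 and 8.69 in WT Scl+, and 9.04 and 9.27 in WT Scl-. WT Scl- was the highest group, above both others without overlap. SclKO over WT Scl- was -0.42 log units (interval -0.90 to 0.05), WT Scl+ over WT Scl- was -0.34 (interval -0.82 to 0.13), and SclKO over WT Scl+ was -0.08 (interval -0.56 to 0.40). The first was -0.27 without SclKO replicate 1, and the second was -0.21 without WT Scl+ replicate 2.

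**Figure D2:**
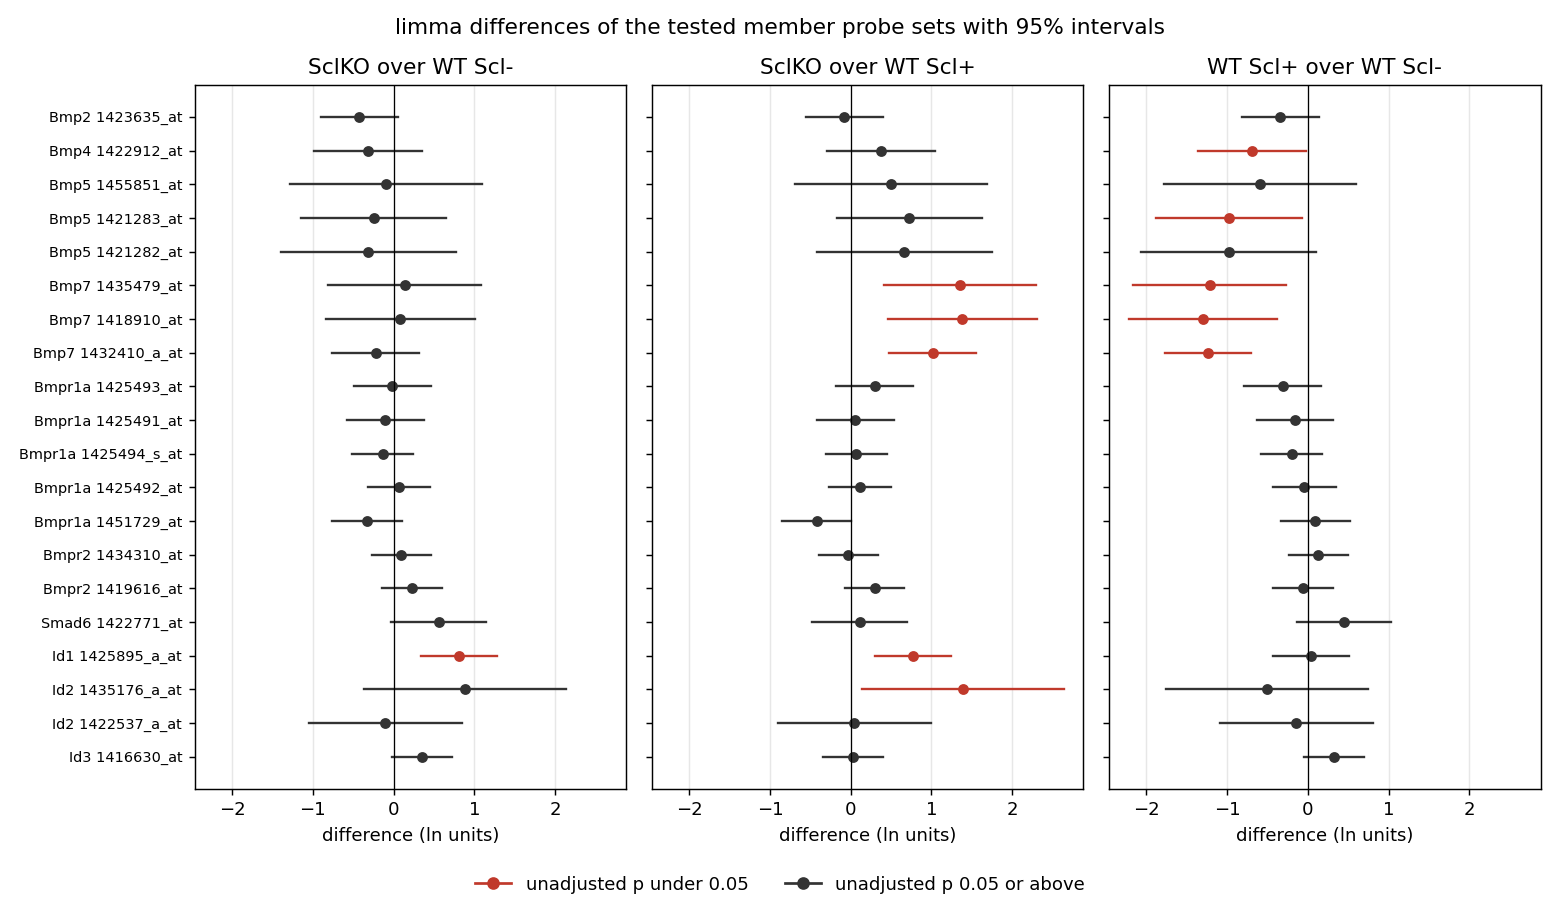
limma differences (natural-log units, points) with 95% intervals (lines) of the 20 tested member probe sets, in 3 panels by comparison. Red marks an unadjusted p under 0.05: only Id1 in SclKO over WT Scl-, 3 Bmp7, Id1 and 1 Id2 probe set in SclKO over WT Scl+, and 3 Bmp7, Bmp4 and 1 Bmp5 probe set in WT Scl+ over WT Scl-.

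Group means of the receptor genes lay closer together than those of Bmp7, Bmp5 and Bmp4. Bmpr1a encodes a type I receptor for Bmp2 and Bmp4. Its brightest probe set, 1425493_at, was at 9.65 and 9.61 in SclKO, 9.55 and 9.12 in WT Scl+, and 9.72 and 9.57 in WT Scl-, and SclKO over WT Scl+ was 0.30 log units (interval -0.18 to 0.77). SclKO over WT Scl- was -0.01 log units (interval -0.49 to 0.46), and WT Scl+ over WT Scl- was -0.31 (interval -0.79 to 0.16). Without WT Scl+ replicate 2, SclKO over WT Scl+ was 0.0827 and WT Scl+ over WT Scl- was -0.0958. The 5 tested Bmpr1a probe sets did not move one way: their SclKO over WT Scl+ differences ran from -0.42 to 0.30. The lowest of these was 1451729_at, at 6.62 and 6.40 in SclKO, 6.80 and 7.06 in WT Scl+, and 6.88 and 6.79 in WT Scl-, so that SclKO was the lowest group for this probe set (SclKO over WT Scl+ interval -0.85 to 0.01).

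Bmpr2, the type II BMP receptor, had group means that lay close together. Probe set 1434310_at was at 9.04 and 9.16 in SclKO, 9.11 and 9.15 in WT Scl+, and 9.006 and 9.004 in WT Scl-. Its differences lay between -0.03 and 0.13 log units, and the widest interval bounds over the 3 comparisons were -0.39 and 0.49. Probe set 1419616_at was at 7.66 and 7.52 in SclKO, 7.30 and 7.29 in WT Scl+, and 7.41 and 7.31 in WT Scl-, which put SclKO above both WT groups by 0.29 and 0.23 log units, again with intervals that include 0.

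Smad6, which blocks BMP receptor signalling and is itself a BMP target, was at 6.68 and 6.92 in SclKO, 6.88 and 6.49 in WT Scl+, and 6.48 and 6.00 in WT Scl-. WT Scl- was the lowest group, without overlap with either other group, narrowly so for WT Scl+ replicate 2. SclKO over WT Scl- was 0.56 log units (SE 0.24, interval -0.03 to 1.14, limma adjusted p = 0.898), WT Scl+ over WT Scl- was 0.45 (interval -0.14 to 1.03), and SclKO over WT Scl+ was 0.11 (interval -0.48 to 0.70). Without WT Scl- replicate 2 the first difference was 0.31 and the second 0.20, and without WT Scl- replicate 1 they were 0.80 and 0.69.

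The 3 Id genes did not share one pattern. Id1, the Id gene most often used as a BMP readout, was at 8.51 and 8.84 in SclKO, 7.76 and 8.06 in WT Scl+, and 7.84 and 7.90 in WT Scl-. Both SclKO arrays lay above all 4 WT arrays, and the WT groups overlapped. SclKO over WT Scl- was 0.81 log units (SE 0.19, interval 0.34 to 1.28, 1.75-fold or 2.24-fold, limma adjusted p = 0.836). SclKO over WT Scl+ was 0.77 (SE 0.19, interval 0.30 to 1.24, 1.71-fold or 2.16-fold, limma adjusted p = 0.223). Leaving out any 1 array kept these at 0.64 to 0.97 and 0.60 to 0.94 log units. WT Scl+ over WT Scl- was 0.04 (interval -0.43 to 0.51), so a difference of either sign within that interval cannot be told from none.

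Id3 was at 9.65 and 9.65 in SclKO, 9.59 and 9.64 in WT Scl+, and 9.21 and 9.38 in WT Scl-. Here WT Scl- was the low group, without overlap, as it was for Smad6. SclKO over WT Scl- was 0.36 log units (SE 0.15, interval -0.01 to 0.73, limma adjusted p = 0.898), WT Scl+ over WT Scl- was 0.32 (interval -0.05 to 0.70), and SclKO over WT Scl+ was 0.03 (interval -0.34 to 0.41).

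Id2 was read differently by its 2 tested probe sets. Probe set 1435176_a_at was at 7.77 and 7.74 in SclKO, 7.23 and 5.51 in WT Scl+, and 6.89 and 6.85 in WT Scl-, with SclKO above all WT arrays and the WT Scl+ replicates far apart. Probe set 1422537_a_at was at 6.23 and 6.92 in SclKO, 6.38 and 6.69 in WT Scl+, and 6.17 and 7.19 in WT Scl-, and its groups overlapped in every comparison. SclKO over WT Scl+ was 1.39 log units (SE 0.51, interval 0.14 to 2.64, limma adjusted p = 0.347) by the first and 0.04 (interval -0.91 to 0.99) by the second. SclKO over WT Scl- was 0.89 (interval -0.36 to 2.13) by the first and -0.10 by the second. The fit shares 1 spread over all 3 groups, so the interval by the first reflects mainly WT Scl+ (replicate SD 1.22). By that probe set the SD was 0.02 in SclKO and 0.03 in WT Scl-. For the first, SclKO over WT Scl+ was 0.53 without WT Scl+ replicate 2, and 2.25 without WT Scl+ replicate 1. Its WT Scl+ over WT Scl- difference was -0.50 with all arrays, but 0.36 without WT Scl+ replicate 2 and -1.36 without replicate 1. The Id2 differences were thus seen in 1 of 2 probe sets, and those that involve WT Scl+ turn on its replicate 2. Whichever array was left out, the SclKO over WT Scl- difference stayed at 0.87 to 0.90.

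**Figure D3:**
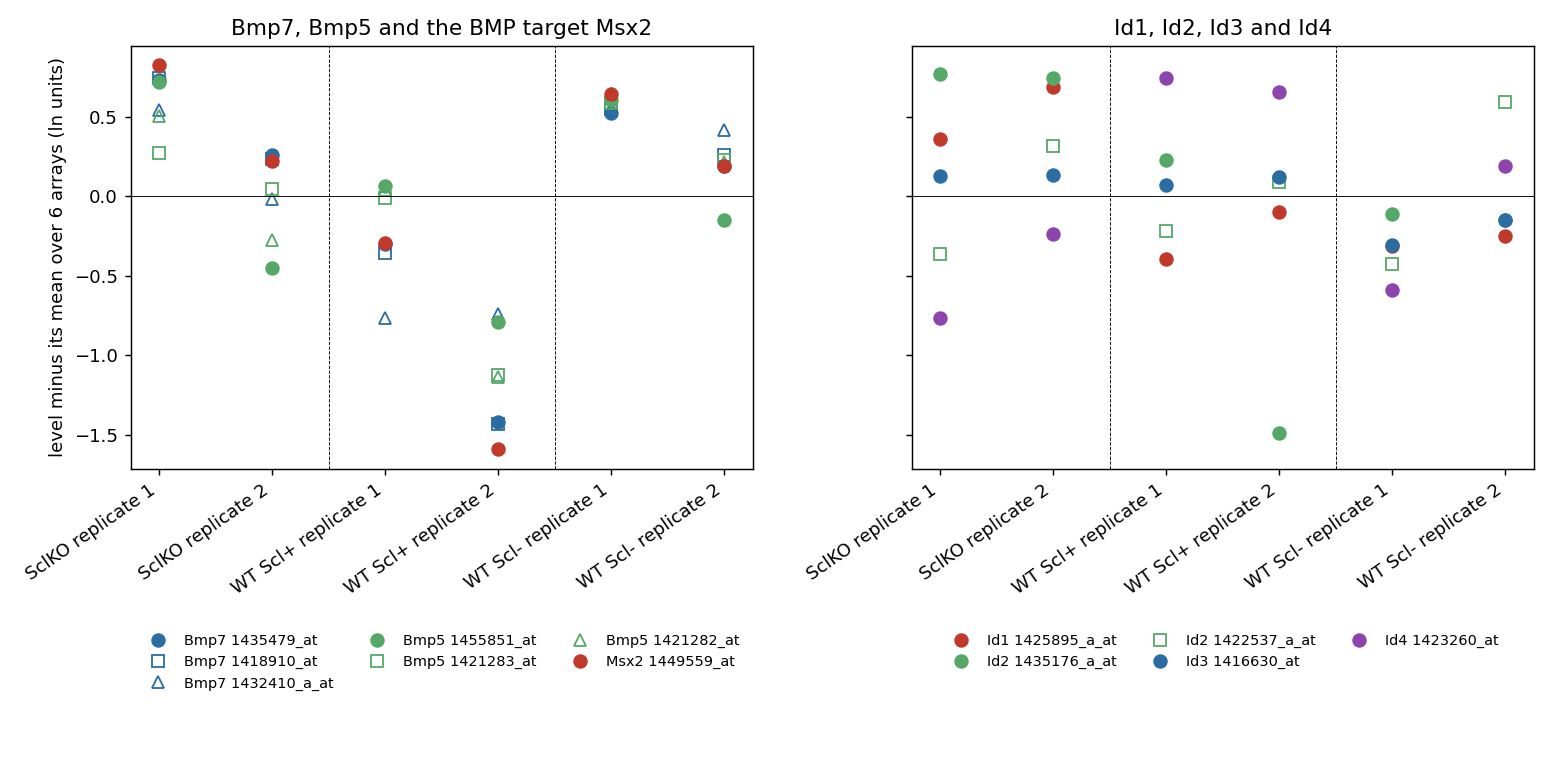
Level minus its mean over the 6 arrays (natural-log units) for the Bmp7, Bmp5 and Msx2 probe sets (left) and the Id1 to Id4 probe sets (right), by array. Msx2 follows Bmp7 closely, with WT Scl+ replicate 2 lowest, while Id1 is high in SclKO, Id4 high in WT Scl+, and the 2 Id2 probe sets part.

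Msx2, a homeobox gene that BMP signalling induces, was the gene whose pattern was most like that of Bmp7, the ligand with the widest range of group means. Over the 6 arrays the Pearson correlation of Msx2 with Bmp7 1435479_at was 0.9987, the highest of 12921 genes compared, followed by Cbln1 (0.9975) and Vrtn (0.997). Msx2 was at 9.06 and 8.45 in SclKO, 7.94 and 6.64 in WT Scl+, and 8.88 and 8.42 in WT Scl-. The genes most like Smad6 were Nrxn2 (0.9818), Tmem127 (0.9711) and Nus1 (0.9693), and those most like Id2 1435176_a_at were Atg5 (0.9971), Dgka (0.9956) and Taf12 (0.9945). These are descriptions over 6 arrays that share groups and 1 outlying array. Of the 5 mesoderm markers, Mesp1, Pdgfra, Mixl1 and Eomes were also lowest on both WT Scl+ arrays, with SclKO over WT Scl+ differences of 1.45, 1.61, 2.61 and 2.39 log units. The fifth, Kdr, did not follow Bmp7, with -0.11 log units and overlapping arrays. Their part in the Bmp7 and Bmp5 differences was not tested.

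Beyond the members, 54 further genes of the pathway were listed, of which 50 had a probe set and 39 were tested at their highest-mean probe set, and 0 were called in any comparison. At an unadjusted p under 0.05, 1 was higher and 0 lower in SclKO over WT Scl-, 6 higher and 2 lower in SclKO over WT Scl+, and 2 higher and 6 lower in WT Scl+ over WT Scl-. The shares of all probe sets were 2.7% higher and 2.77% lower in the first comparison, 7.35% and 5.68% in the second, and 4.44% and 4.94% in the third.

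Of the 5 other BMP targets, Msx2, Hey1 and Id4 separated WT Scl+ from both other groups. Msx2 differed by 1.47 log units in SclKO over WT Scl+ (SE 0.45, limma adjusted p = 0.287) and by -1.36 in WT Scl+ over WT Scl- (0.82 and -0.71 without WT Scl+ replicate 2). Without WT Scl+ replicate 1 they were 2.12 and -2.01. Hey1, a repressor shared with the Notch pathway, was at 10.66 and 10.55 in SclKO, 9.85 and 9.85 in WT Scl+, and 10.57 and 10.79 in WT Scl-. It differed by 0.75 log units in SclKO over WT Scl+ (SE 0.16) and -0.83 in WT Scl+ over WT Scl-. Id4 ran the other way, at 8.23 and 8.76 in SclKO, 9.74 and 9.65 in WT Scl+, and 8.41 and 9.19 in WT Scl-. It differed by -1.20 log units in SclKO over WT Scl+ (SE 0.31, limma adjusted p = 0.226) and by 0.90 in WT Scl+ over WT Scl- (SE 0.31, limma adjusted p = 0.487). The second difference was 0.51 without WT Scl- replicate 1 and 1.29 without WT Scl- replicate 2. For Msx1 and Atoh8 the differences lay between -0.14 and 0.25 log units.

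Of 8 tested receptors and co-receptors, 2 were higher and 1 lower in SclKO over WT Scl+ at an unadjusted p under 0.05, against 7.35% and 5.68% of all probe sets. The type I receptor Acvr1 was at 7.55 and 7.38 in SclKO, 6.95 and 6.11 in WT Scl+, and 7.41 and 7.48 in WT Scl-, and the type II receptor Acvr2a at 9.26 and 9.23 in SclKO, 8.92 and 7.79 in WT Scl+, and 9.53 and 9.27 in WT Scl-. Their WT Scl+ arrays were the lowest, with differences of 0.94 and 0.89 log units in SclKO over WT Scl+ and -0.92 and -1.05 in WT Scl+ over WT Scl-. Without WT Scl+ replicate 2 these were 0.52 and 0.33, and -0.50 and -0.48. Acvrl1, the endothelial type I receptor, had the opposite sign, at 5.26 and 5.19 in SclKO, 6.02 and 6.31 in WT Scl+, and 5.17 and 5.99 in WT Scl-. SclKO over WT Scl+ was -0.94 log units (SE 0.29). Among 7 Smads and Smurf ubiquitin ligases, Smad1, which carries the BMP signal, differed by -0.46 log units in WT Scl+ over WT Scl- (SE 0.17, limma adjusted p = 0.513; -0.30 without WT Scl- replicate 1), and the list medians lay between -0.10 and 0.02.

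Of 13 tested extracellular regulators, 2 were higher in SclKO over WT Scl+ at an unadjusted p under 0.05, against 7.35% of all probe sets. Fst, which encodes the activin and BMP antagonist follistatin, was at 8.49 and 8.04 in SclKO, 7.48 and 5.38 in WT Scl+, and 7.64 and 6.95 in WT Scl-. Its SclKO over WT Scl+ difference was 1.84 log units (SE 0.66), which became 0.79 once WT Scl+ replicate 2 was left out. Bmper, a BMP-binding protein, was at 8.06 and 7.39 in SclKO, 6.83 and 6.16 in WT Scl+, and 7.62 and 7.11 in WT Scl-. It differed by 1.23 log units in SclKO over WT Scl+ and -0.87 in WT Scl+ over WT Scl-, which were 0.89 and -0.53 without WT Scl+ replicate 2. Fstl1 had the opposite sign, at 0.47 log units in WT Scl+ over WT Scl- (0.31 without WT Scl- replicate 1). The antagonist Nog lay under the limit on every array. Leaving out WT Scl+ replicate 1 left the outlying replicate 2 as the only WT Scl+ array. SclKO over WT Scl+ was then 2.89 log units for Fst, 1.36 for Acvr1 and 1.46 for Acvr2a. Of the E proteins that Id proteins bind, Tcf4 differed by 0.49 log units in SclKO over WT Scl- (SE 0.17, limma adjusted p = 0.895), and Tcf3 and Tcf12 by 0.03 and -0.01. None of 3 tested other BMP ligands (Bmp6, Bmp8b, Gdf2) had an unadjusted p under 0.05.

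**Figure D4:**
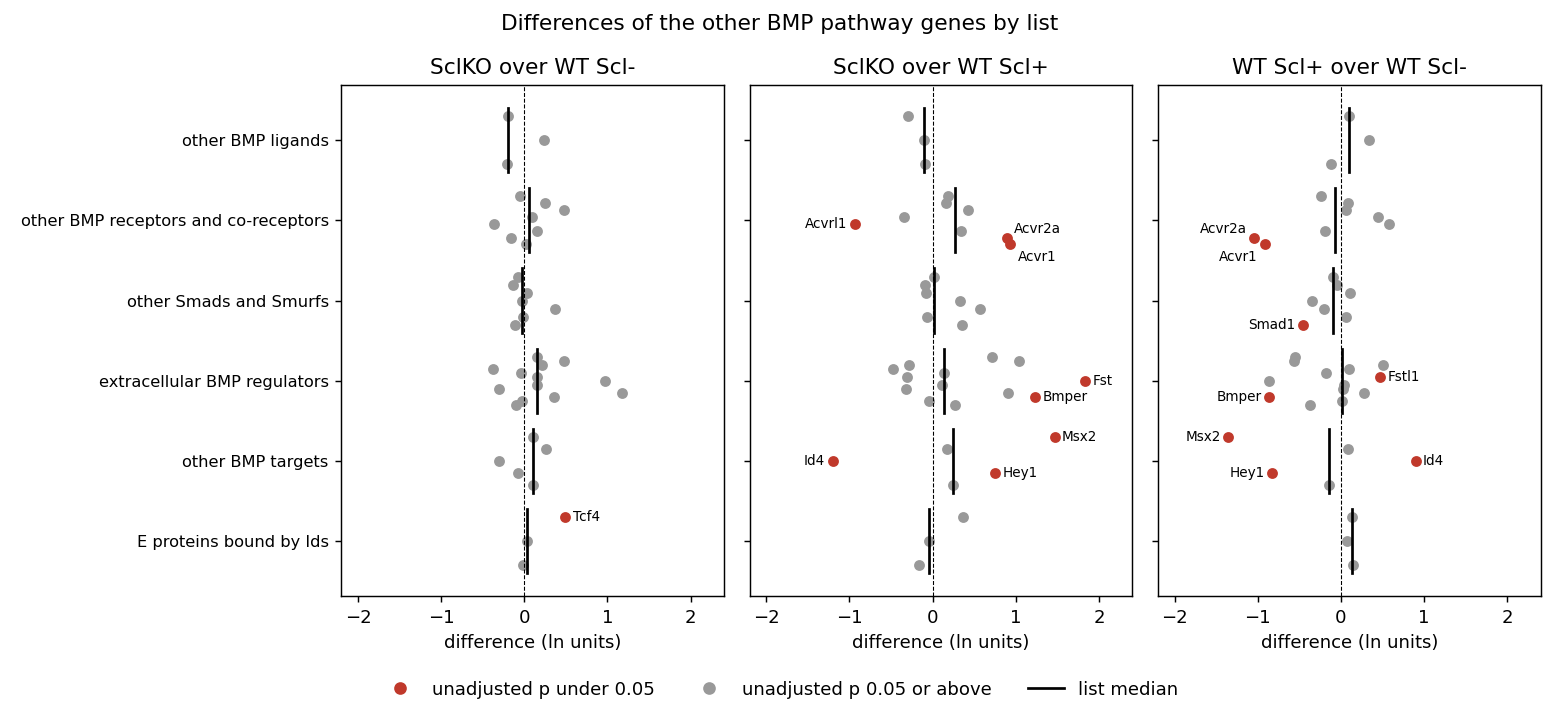
Differences (natural-log units) of the 39 tested further pathway genes, in rows by list and panels by comparison. Each point is 1 gene, black bars are list medians, and red named points had an unadjusted p under 0.05 without overlap of the arrays; most named points lie in the 2 comparisons that involve WT Scl+.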

How the data were processed

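RNA from 6 samples was measured on Affymetrix arrays, in the groups SclKO, WT Scl+ and WT Scl- (2 arrays each), taken from the sample titles. The deposited signal values came from the authors. Per the submitters' processing notes, the tools were affy, RMA and limma, whose versions are not given in the sources used here. The signal is not on a log scale (3.256 to 2822995, in part above the 65535 of a 16-bit scanner), so natural logs were taken, as the design's log values require. The number of unused columns was 0. Of 45101 probe sets, 64 controls were left out. The platform annotation gave 34958 probe sets 1 symbol, 932 several and 9211 none.

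Probe sets above their array's 40th percentile on at least 2 arrays were fitted with limma 3.58.1 in R 4.3.3 (a mean per group over all 6 arrays, eBayes, residual df 3, prior df 3.13, two-sided), adjusted by Benjamini-Hochberg over 28362 probe sets and called at 0.05. The script was tested on simulated data. Arrays give no read depth, and their number limits the precision. The members, the gene lists and the tests were chosen with earlier results of these data known. All member probe sets are described. Genes of the other lists were named, up to 4 per list and comparison by size, if the unadjusted p was under 0.05 and the arrays did not overlap. The most alike genes were taken for the member with the widest range of group means in each role. Alternatives were a replicate block, other filters, 1 probe set per gene, other scaling, an intensity trend, array weights, fits of 2 groups and leaving out each array. Some listed genes, among them Brachyury (T), Bmp3, Gdf6 and Gdf7, were not analysed here.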

Additional observations from a re-analysis of the deposited data

How the results depend on the processing

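With 2 arrays a group and 3 residual degrees of freedom, only differences much wider than the array spread could pass. All alternatives were run. No member was called in the main fit, so none could lose a call. The replicate block, the filters, the intensity trend and the array weights leave the fitted differences as they are. Directions could not change under those settings, so the count that kept direction is no measure of robustness. Of 867 member differences, 829 kept direction and side of the threshold, 35 changed sign (32 on leaving out 1 array) and 3 passed, all in SclKO over WT Scl+ without WT Scl+ replicate 1 (2 Bmp7, 1 Id2), and 0 lost a call; the lowest adjusted p was 0.0246. Over all probe sets, 3, 3 and 0 were called in SclKO over WT Scl-, SclKO over WT Scl+ and WT Scl+ over WT Scl-, and 1, 5 and 5 members had an unadjusted p under 0.05. In that order, leaving out 1 array gave 0 to 3, 0 to 1179 and 0 to 46 calls (both highest counts without WT Scl+ replicate 1, and 0 without either SclKO array), and 1 to 4, 2 to 9 and 1 to 8 members. Member medians then ran from -0.14 to 0.08, 0.08 to 0.41 and -0.36 to -0.13. For SclKO over WT Scl-, the intensity trend gave 11 calls and 3 members, and array weights 7 calls and 5 members. In the same comparison, 1 probe set per gene gave 1 call and 2 members, centred arrays 2 members, and a fit of only 2 groups 4 members. The array weights were equal within each group (1.361 in SclKO, 0.516 in WT Scl+, 1.424 in WT Scl-). They could thus not single out WT Scl+ replicate 2. For SclKO over WT Scl+, the trend gave 37 calls, the fit of only 2 groups 27, and 1 probe set per gene 1 call and 3 members. For WT Scl+ over WT Scl-, 1 probe set per gene gave 2 members. The replicate block gave 6 calls and 8 members in SclKO over WT Scl+. Under it all 3 Bmp5 probe sets had an unadjusted p under 0.05 there (limma adjusted p 0.247 to 0.268) and in WT Scl+ over WT Scl- (0.232 to 0.297). The replicates share only a number: deviations of same-numbered arrays correlated at 0.2377 (SclKO and WT Scl+), 0.2051 (SclKO and WT Scl-) and 0.2119 (WT Scl+ and WT Scl-), over only 2 numbers. Beyond fewer genes or arrays, the cause was not tested.

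Centring turned Bmpr1a 1425493_at in SclKO over WT Scl- to 0.0048, and repeated quantile normalisation turned Id2 1422537_a_at to -0.0085 and Id3 to -0.0196 in SclKO over WT Scl+. Ranges over left-out arrays that include both signs follow. In SclKO over WT Scl- these were -0.66 to 0.0239 for Bmp4, -0.68 to 0.49 and -0.71 to 0.0777 for Bmp5 1455851_at and 1421282_at, -0.10 to 0.37, -0.17 to 0.34 and -0.51 to 0.059 for Bmp7 1435479_at, 1418910_at and 1432410_a_at, -0.0875 to 0.0613 and -0.26 to 0.0556 for Bmpr1a 1425493_at and 1425491_at, and -0.61 to 0.41 for Id2 1422537_a_at. In SclKO over WT Scl+ they were -0.23 to 0.072 for Bmp2, -0.0888 to 1.08 for Bmp5 1455851_at, -0.079 to 0.19 for Bmpr1a 1425491_at, -0.0894 to 0.03 for Bmpr2 1434310_at, -0.0869 to 0.31 for Smad6 and -0.30 to 0.38 for Id2 1422537_a_at. In WT Scl+ over WT Scl- they were -0.14 to 0.053 and -0.0343 to 0.22 for Bmpr1a 1425492_at and 1451729_at, -0.11 to 0.19 for Id1, and -1.36 to 0.36 and -0.65 to 0.36 for Id2 1435176_a_at and 1422537_a_at.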
